A study of Homo sapiens with 6 samples.

Results

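The 4 *HOX* clusters were examined as 55 genes of the 60651 in each count table: all 39 coding genes named *HOXA*, *HOXB*, *HOXC* or *HOXD* with a digit, and 16 non-coding genes, namely *HOTAIR*, *HOTAIRM1*, *HOTTIP* and the *HOX* antisense genes. They were chosen by symbol, and 17 belonged to *HOXA* on chromosome 7, 14 to *HOXB* on chromosome 17, 14 to *HOXC* on chromosome 12 and 10 to *HOXD* on chromosome 2. Total RNA depleted of ribosomal RNA was sequenced in 6 libraries of human neuroblastoma cells, of which 3 are titled EtOH (ethanol, the vehicle) and 3 Tet (tetracycline, given for 5 days). The labels do not settle which cells these were. The titles give IMR-5/75, a *MYCN*-amplified line, and a tag calls the Tet arm an induction under the heading knockdown. The protocol instead describes SK-N-SH cells, kept as single clones, with a *MYCN* transgene under a tetracycline-controlled repressor and G418 and blasticidin selection in both arms. In the study, *MYCN* was induced in cells derived from SK-N-AS and silenced by an inducible shRNA in IMR-5/75, so groups were taken from the titles alone. The study describes its cell culture work as biological triplicates unless it says otherwise, and the labels add only the numbers 1 to 3, so the p-values measure the spread between these libraries.

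*HOX* genes encode homeodomain transcription factors that give cells of the embryo their position along the head-to-tail axis. Within a cluster the genes are numbered from 1 at the anterior end to 13 at the posterior end, and genes of the same number in different clusters form a paralog group descended from one ancestral gene. Their order on the chromosome follows the order in which they are used along the body, and Polycomb proteins keep unused clusters silent, while Trithorax proteins keep used ones active. Neuroblastoma arises from the sympathetic lineage of the trunk neural crest.

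*MYCN*, the check of the labels, stood at 158, 256 and 156 CPM in EtOH 1, 2 and 3 and at 197, 200 and 145 CPM in Tet 1, 2 and 3, where CPM is a count scaled to a common library total after TMM normalisation. The groups overlapped and differed by a log2 fold change of -0.07 with an SE of 0.23 (adjusted p = 0.956 by edgeR). Every direction given here is therefore one between labels, not between known *MYCN* levels. This check reads RNA only. The study reports western blots of MYCN protein for its induction model and its knockdown model, and protein was not measured in these libraries. Totals were 27933378 to 40498065 estimated counts per library, and the chi-square per degree of freedom between libraries of the same group was 11.4 to 147. EtOH 2 stood apart, with the lowest mitochondrial share (4.12%, against 5.86% to 10.01% in the others) and the fewest genes with 10 or more counts (20861, against 21561 to 24064). Of the marker lists, noradrenergic neuroblastoma genes were high in all libraries, with summed levels of 559 to 607 TPM (counts divided by exon length and then scaled) in EtOH and 623 to 744 TPM in Tet, although *TH* was at 0 in 5 libraries and *DBH* at most 0.402 TPM. Mesenchymal neuroblastoma genes summed to 26.4 to 70.9 TPM in EtOH and 17.4 to 29.2 TPM in Tet, and the proliferation genes to 820 to 1470 TPM and 730 to 1011 TPM.

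The *HOXD* promoters are shown first, because in the fit over all 6 libraries *HOXD13* had the largest fitted difference between the labels among the members and *HOXD8*, in the same cluster, the smallest. This order did not hold under every alternative: without EtOH 2 the log2 fold change of *HOXD4* was -1.36 and that of *HOXD13* -1.27, and without Tet 3 they were -1.97 and -1.17. Without EtOH 2 that of *HOXC9* (-0.0062) was smaller in size than that of *HOXD8* (-0.10). The sequences are RefSeq's on GRCh38.p14, run from 250 bases before to 50 bases after the annotated start, and are written 5′ to 3′ on the gene's strand. Capitals mark CACGTG, the canonical E-box, to which MYC family proteins bind as dimers with MAX. The *HOXD13* window is chr2:176092471-176092770 and the *HOXD8* window chr2:176129455-176129754, both on the plus strand.
HOXD13: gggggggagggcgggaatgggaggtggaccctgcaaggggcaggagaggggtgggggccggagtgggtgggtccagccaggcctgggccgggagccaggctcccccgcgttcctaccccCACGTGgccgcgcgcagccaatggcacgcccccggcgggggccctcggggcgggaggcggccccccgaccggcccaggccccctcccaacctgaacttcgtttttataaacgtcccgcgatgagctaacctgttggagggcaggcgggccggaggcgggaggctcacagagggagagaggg
HOXD8: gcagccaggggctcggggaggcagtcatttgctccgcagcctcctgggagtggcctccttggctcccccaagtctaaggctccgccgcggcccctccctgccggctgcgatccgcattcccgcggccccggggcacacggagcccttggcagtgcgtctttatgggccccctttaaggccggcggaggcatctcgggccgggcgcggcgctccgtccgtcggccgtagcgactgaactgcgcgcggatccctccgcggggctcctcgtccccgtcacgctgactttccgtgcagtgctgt
The *HOXD13* window held 24 CpG dinucleotides and a G+C content of 74.0%, and the *HOXD8* window held 34 and 71.7%. *HOXD13* had 1 CACGTG, whose first base lies 131 bases before the start, and *HOXD8* had none.

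The same 6 letters stood in 5 of the 8 *HOXD* coding promoters in the RefSeq table. The other 4 are shown as stretches of 42 bases around the E-box, on chromosome 2 and the plus strand, at chr2:176107172-176107213, chr2:176116654-176116695, chr2:176157242-176157283 and chr2:176188597-176188638 in the order listed.
HOXD11: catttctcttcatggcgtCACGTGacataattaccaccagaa
HOXD10: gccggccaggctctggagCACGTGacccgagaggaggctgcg
HOXD3: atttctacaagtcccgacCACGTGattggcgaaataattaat
HOXD1: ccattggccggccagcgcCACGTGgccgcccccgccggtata
*HOXD12*, *HOXD8* and *HOXD4* had no CACGTG in the window, and *HOXD9* had no entry. The looser E-box CANNTG, where N is any base, occurred 1 time in the *HOXD8* window and 3 times in that of *HOXD4*. Over the 29 members of 55 with an entry, 8 windows (27.6%) held CACGTG, against 7.26% of all 35116 promoters of the same length. *HOXC4* and *HOXC5* share a window, which begins far upstream of *HOXC5* as counted here, so that 28 distinct windows gave 28.6%, against 7.23% of 34943 distinct windows of all genes. CACGTG reads the same on both strands, so each match was counted once. For CANNTG the members did not stand out, with 65.5% of their windows against 68.7% of all promoters. *HOXA4*, *HOXA7* and *HOXA9* were the other 3 members with CACGTG, and all 3 had 0 counts in every library. The window of *HOXD13* also held TATAAA, counting both strands, as did 17.2% of the members' windows and 11.5% of all promoters. The RefSeq start used for *HOXD11*, *HOXD10* and *HOXD3* lies inside the gene as counted here, since the count tables include transcripts that begin 3064, 7988 and 20695 bases further upstream. A match describes the letters only.

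Of the 55 members, 30 had 0 counts in all 6 libraries, 25 had a count in some library, 12 had enough counts to be tested and 11 reached a mean of 1 TPM. Transcription was divided by cluster. *HOXC* and *HOXD* coding genes together had 10204 counts over the 6 libraries, and *HOXA* and *HOXB* coding genes together had 12.66. Counts were not scaled to length in these sums, and a count of 0 allows up to 0.0755 to 0.108 CPM per library, which is what 3 counts are worth. These limits cover counting error only.

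Of the 11 *HOXA* coding genes, 10 had 0 counts in every library. *HOXA13*, the most posterior, had 3, 1 and 2 counts in EtOH 1, 2 and 3 and 2, 1 and 1 counts in Tet 1, 2 and 3, a mean of 0.0279 TPM. It is of the same paralog group as *HOXD13*, which reached a mean of 20.7 TPM. The 6 *HOXA* non-coding genes had 2.33 counts in all. Among them *HOTTIP*, the long non-coding RNA beyond *HOXA13* known to bring Trithorax complexes to the posterior *HOXA* genes, had 0 counts in every library. *HOTAIRM1*, a non-coding RNA from the anterior part of the cluster, had 0.33 counts, in EtOH 2.

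The *HOXB* cluster was as quiet. Of its 10 coding genes 9 had 0 counts in all libraries, and *HOXB3* had 2.66 counts in total. The 4 *HOXB* antisense genes shared 1.32 counts.

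**Figure D1:**
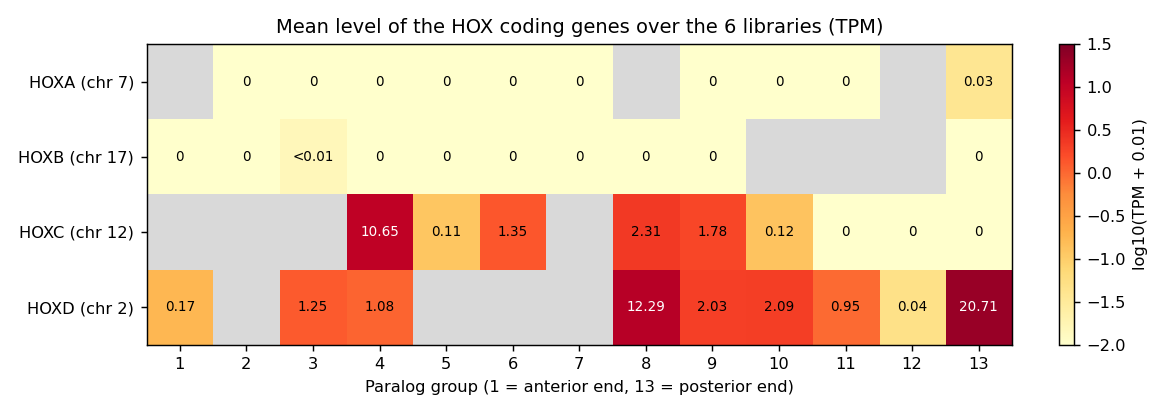
Mean level of each *HOX* coding gene over the 6 libraries in TPM, with clusters in rows and paralog groups in columns; grey squares are paralogs that the cluster lacks in humans or that are not shown, and the colour scale is log10(TPM + 0.01). *HOXA* and *HOXB* are at or near 0 throughout, and the 3 highest genes are *HOXD13* (20.7 TPM), *HOXD8* (12.3 TPM) and *HOXC4* (10.7 TPM).

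*HOXC* was transcribed at its anterior and middle part and silent at its posterior end. *HOXC13*, *HOXC12* and *HOXC11* had 0 counts in all libraries. *HOXC10* followed at 0.121 TPM, *HOXC9* at 1.78 TPM, *HOXC8* at 2.31 TPM and *HOXC6* at 1.35 TPM, each a mean over 6 libraries. *HOXC5* was at 0.112 TPM, and *HOXC4*, the most anterior *HOXC* gene, was the highest of the cluster at 10.7 TPM. The *HOXC* non-coding genes had 11 counts in all. *HOTAIR*, which lies between *HOXC12* and *HOXC11* and is known to bind Polycomb complexes and act on the *HOXD* cluster, had 1 count in EtOH 2 and 2 counts in Tet 2 and 0 in the other libraries.

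*HOXD* was the one cluster with a count for every coding gene. Its levels did not fall or rise evenly along the chromosome. *HOXD13*, at the posterior end, was the highest *HOX* gene of all at 20.7 TPM and stood 3955th among coding genes. Its neighbour *HOXD12*, which begins 3850 bases beyond the end of *HOXD13*, had 7 counts in all and a mean of 0.0389 TPM. *HOXD11* begins 1726 bases beyond the end of *HOXD12* and stood at 0.952 TPM, *HOXD10* at 2.09 TPM and *HOXD9* at 2.03 TPM. *HOXD8* formed a further peak of 12.3 TPM, and *HOXD4*, *HOXD3* and *HOXD1* stood at 1.08, 1.25 and 0.171 TPM. *HOXD-AS2*, an antisense RNA whose span crosses *HOXD9* and *HOXD8*, was the only non-coding member past 1 TPM, at 8.50 TPM. The counting divided reads between overlapping genes without regard to strand. Of the *HOXD-AS2* exon bases 49.3% lay inside another gene, and of those of *HOXD8* 24.4%, so their reads cannot be fully told apart. *HOXD13*, *HOXC8*, *HOXD9* and *HOXD4* had no overlapping exon base, and *HOXC4* had 17.5%, shared with *HOXC6* and a gene without a symbol. The share was 60.1% for *HOXD1*, in part with the non-coding *HAGLR*, and 67.3% for *HOXC5*. Some of the few counts of *HOXD1* and *HOXC5* may therefore belong to the overlapping genes.

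**Figure D2:**
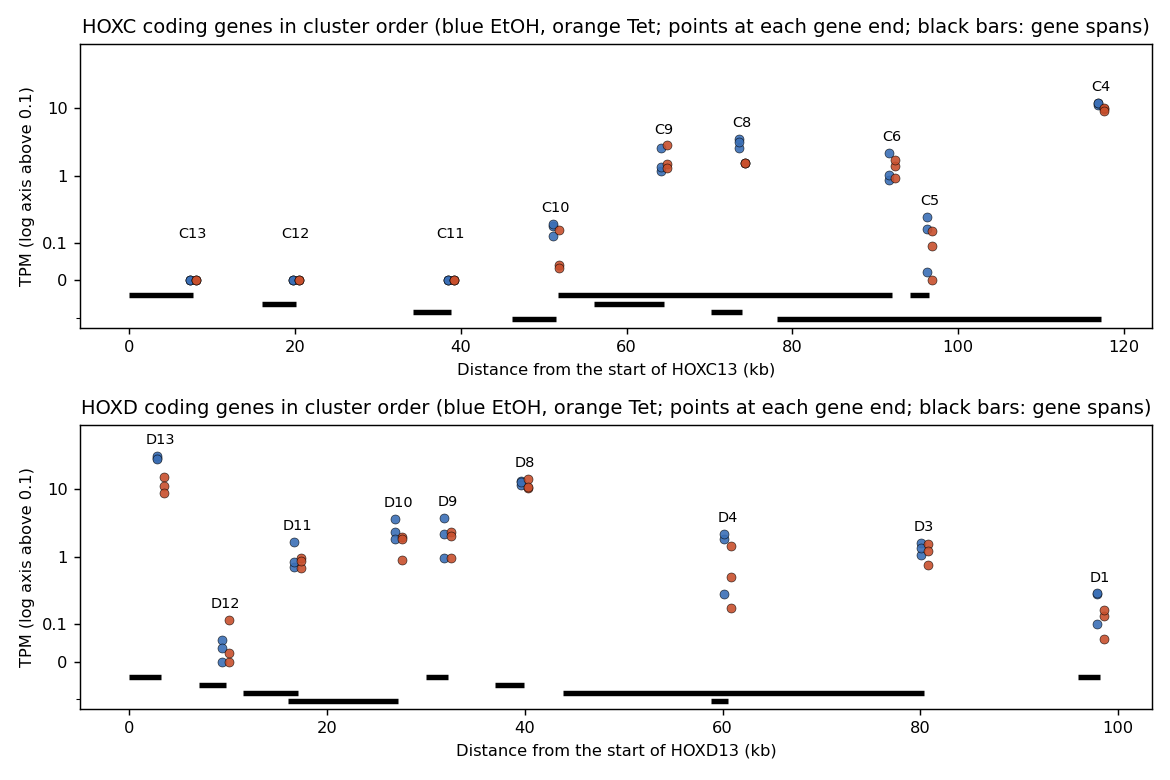
Level of each *HOXC* (top) and *HOXD* (bottom) coding gene in TPM, on an axis that is logarithmic above 0.1, against the distance in kb from the start of *HOXC13* or *HOXD13*; each point is a library (blue EtOH, orange Tet) set at the gene's end, and black bars are gene spans. *HOXC13*, *HOXC12* and *HOXC11* are at 0, *HOXD12* (0.0389 TPM) lies between *HOXD13* (20.7 TPM) and *HOXD11* (0.952 TPM), and the 3 Tet points of *HOXD13* lie below its 3 EtOH points.

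The difference between the labels was then read for the 12 members tested, from the fit over all 22443 genes. No member passed the threshold of 0.05 on the adjusted p, with 53 of all genes (0.236%) called. The count of members with an unadjusted p under 0.05 was 2 of 12 (*HOXD13* and *HOXC8*, both lower in Tet), where 10.8% of all genes had one. In 3 of 12 (*HOXD13*, *HOXC8* and *HOXC4*) every Tet library lay below every EtOH library, where 8.28% of all genes did so. The fitted log2 fold change was below 0 for 9 members and above 0 for 3, with a median of -0.25 and a range of -1.29 to 0.22. Over all genes tested the median was -0.0061 and 50.7% were below 0. In bulk RNA, fewer cells that express a gene and less RNA per cell cannot be told apart.

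*HOXD13* (ENSG00000128714.6, chr2:176092721-176095944, plus strand) belongs to the most posterior paralog group. It stood at 26.3, 26.1 and 24.8 CPM in EtOH 1, 2 and 3 and at 12.9, 9.84 and 8.83 CPM in Tet 1, 2 and 3. The groups did not overlap, and all 3 Tet libraries were far below the EtOH libraries, which lay close together. Means were 25.7 ± 0.833 CPM (SD, n = 3) in EtOH and 10.5 ± 2.14 CPM (SD, n = 3) in Tet, a 2.44-fold difference (log2 fold change -1.29, SE 0.20, 95% interval -1.74 to -0.84). Its adjusted p was 0.0535 by edgeR's quasi-likelihood test, just outside the threshold, and its p ranked 55th of all genes. Without EtOH 2 the log2 fold change was -1.27 and the adjusted p 0.0161. The gene passed under 4 other settings, which are given with the limits, and its direction was the same under every setting. The summed level of the 4 fibroblast genes was also lower in Tet, at 30.9 to 36.3 TPM in EtOH and 18.1 to 24.3 TPM in Tet. This sum was mostly *PDGFRA* (28.2 ± 1.47 against 13.8 ± 2.17 TPM, SD, n = 3, edgeR adjusted p = 0.0464), and the list did not move as a whole. Of the other 3 fibroblast genes *COL1A1* had 1.25 against 0.795 TPM, with groups that overlapped in CPM. *COL3A1* went the other way, with 3.67 against 7.13 TPM and every Tet library above every EtOH library (edgeR adjusted p = 0.143). *COL1A2* was at 0 in all libraries. Among the 5 mesenchymal genes *PRRX1* (29.7 ± 16.7 against 13.7 ± 3.98 TPM, SD, n = 3, edgeR adjusted p = 0.317) and *NOTCH2* (0.0621 against 0.0227 TPM, adjusted p = 0.409) were lower in every Tet library than in any EtOH library, without passing the test, and *YAP1*, *WWTR1* and *FOSL1* overlapped. The noradrenergic sums given above did not overlap between groups and were higher in Tet. The part of these markers in the *HOXD13* difference was not tested.

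**Figure D3:**
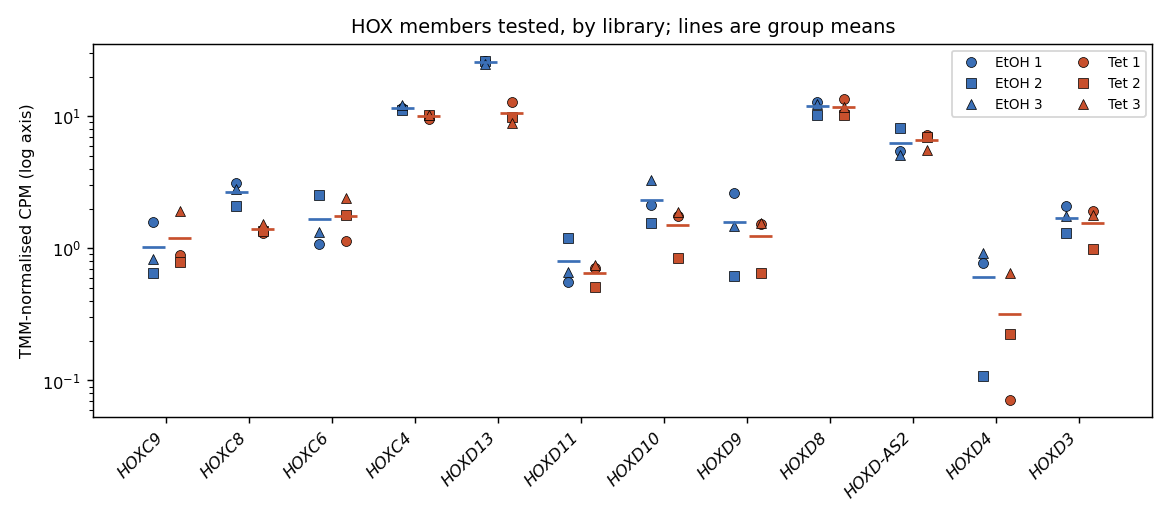
TMM-normalised CPM of the 12 members tested, on a log axis, by library (blue EtOH, orange Tet, marker shape for replicate 1, 2 or 3), with short lines at the group means; genes are ordered by cluster and position of the gene end. *HOXD13* falls into 2 separate groups (24.8 to 26.3 in EtOH, 8.83 to 12.9 in Tet), and *HOXD4* has the widest scatter.

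*HOXD8* (ENSG00000175879.9, chr2:176129694-176132695, plus strand), of the central paralog group, did not show this split. It stood at 12.9, 10.2 and 12.5 CPM in EtOH 1, 2 and 3 and at 13.5, 10.3 and 11.8 CPM in Tet 1, 2 and 3, with replicate 2 the lowest in both groups. The log2 fold change was -0.00 (SE 0.20, 95% interval -0.46 to 0.45, adjusted p = 0.998). The ratio of *HOXD13* to *HOXD8*, within a library, was 2.03, 2.55 and 1.98 in EtOH and 0.961, 0.956 and 0.747 in Tet. These are ratios of CPM, not corrected for length, and the EtOH and Tet ratios did not overlap. *HOXD13* and *HOXD8* had the largest and smallest fitted differences among the members, so this split restates that of *HOXD13* and adds no support to it. Per length, *HOXD13* stood above *HOXD8* in every EtOH library, and in Tet 1 (15.1 against 14.4 TPM) and Tet 2 (11.1 against 10.7 TPM), and below it in Tet 3 alone (8.91 against 11.0 TPM).

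Per length, *HOXD13* made up 55.3%, 64.4% and 54.3% of the summed *HOXD* coding TPM in EtOH 1, 2 and 3 and 41.1%, 43.3% and 32.5% in Tet 1, 2 and 3. The summed *HOXD* coding level was 49.6 to 53.0 TPM in EtOH and 25.6 to 36.8 TPM in Tet, with no overlap. Without *HOXD13* it was 17.6 to 23.7 TPM in EtOH and 14.5 to 21.7 TPM in Tet, and the groups overlapped.

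*HOXC8* (ENSG00000037965.6, chr12:54008985-54012769, plus strand) marks the thoracic part of the axis. It stood at 3.12, 2.09 and 2.84 CPM in EtOH 1, 2 and 3 and at 1.31, 1.35 and 1.54 CPM in Tet 1, 2 and 3. The groups did not overlap, and the Tet libraries lay closer together than the EtOH libraries. The means of 2.69 ± 0.534 and 1.40 ± 0.119 CPM (SD, n = 3) differed 1.92-fold (log2 fold change -0.94, SE 0.30, 95% interval -1.62 to -0.26, edgeR adjusted p = 0.291), which did not pass. The summed fibroblast markers, mostly *PDGFRA*, were lower in Tet and the summed noradrenergic markers higher, and their part was not tested here either.

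*HOXC4* (ENSG00000198353.8, chr12:54016931-54056030, plus strand), a gene of the cervical part of the axis, differed less. It stood at 11.6, 11.1 and 12.1 CPM in EtOH 1, 2 and 3 and at 9.50, 10.3 and 10.2 CPM in Tet 1, 2 and 3. The groups did not overlap, but the gap between them was small beside their distance from 0, and the log2 fold change was -0.22 (SE 0.18, 95% interval -0.62 to 0.19, adjusted p = 0.750). The ratio of *HOXC8* to *HOXC4* was 0.269, 0.188 and 0.234 in EtOH and 0.138, 0.131 and 0.151 in Tet. It is a ratio of CPM, not corrected for length, and it restates the split of *HOXC8* without adding support to it. The summed *HOXC* coding level was 17.9 to 18.5 TPM in EtOH and 13.8 to 15.3 TPM in Tet. This sum includes *HOXC4* (mean 11.7 against 9.60 TPM) and *HOXC8* (3.08 against 1.53 TPM), so it restates their differences too.

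The antisense *HOXD-AS2* stood at 5.47, 8.15 and 5.09 CPM in EtOH 1, 2 and 3 and at 7.23, 6.97 and 5.56 CPM in Tet 1, 2 and 3. The groups overlapped, with EtOH 2 the highest library of all, and the log2 fold change was 0.08 (SE 0.26, adjusted p = 0.958).

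The middle *HOXD* genes were lower and more scattered. *HOXD10*, with a role in the lumbar spinal cord and hindlimb, stood at 2.15, 1.55 and 3.31 CPM in EtOH 1, 2 and 3 and at 1.77, 0.846 and 1.89 CPM in Tet 1, 2 and 3 (log2 fold change -0.64, 95% interval -1.60 to 0.33, adjusted p = 0.669). *HOXD9*, its anterior neighbour, stood at 2.62, 0.613 and 1.49 CPM in EtOH and at 1.52, 0.649 and 1.56 CPM in Tet (-0.35, 95% interval -1.62 to 0.92, adjusted p = 0.892). Replicate 2 was the lowest of its group for both genes, and the groups overlapped. *HOXD11* lay between 0.508 and 1.19 CPM in all libraries.

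Of the anterior *HOXD* genes, *HOXD3* stood at 2.09, 1.30 and 1.75 CPM in EtOH 1, 2 and 3 and at 1.91, 0.987 and 1.79 CPM in Tet 1, 2 and 3 (log2 fold change -0.14, 95% interval -0.99 to 0.71, adjusted p = 0.947). *HOXD4* stood at 0.781, 0.108 and 0.926 CPM in EtOH and at 0.0709, 0.226 and 0.654 CPM in Tet (-0.89, 95% interval -2.86 to 1.08, adjusted p = 0.795). The *HOXD4* interval spans more than that of any other member tested, and its counts ranged from 2 to 28 per library. Its log2 fold change was -1.97 without Tet 3, -1.36 without EtOH 2, -0.50 without EtOH 3 and -0.47 without Tet 1.

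In the *HOXC* cluster, *HOXC9*, a thoracic gene that sets motor neuron identity, stood at 1.59, 0.649 and 0.826 CPM in EtOH 1, 2 and 3 and at 0.886, 0.790 and 1.91 CPM in Tet 1, 2 and 3 (log2 fold change 0.22, 95% interval -0.92 to 1.37, adjusted p = 0.933). *HOXC6* stood at 1.09, 2.56 and 1.32 CPM in EtOH and at 1.13, 1.78 and 2.39 CPM in Tet (0.11, 95% interval -0.89 to 1.10, adjusted p = 0.969). Neither separated the labels, and *HOXC6* was highest in EtOH 2, the library in which *HOXC9* was lowest.

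**Figure D4:**
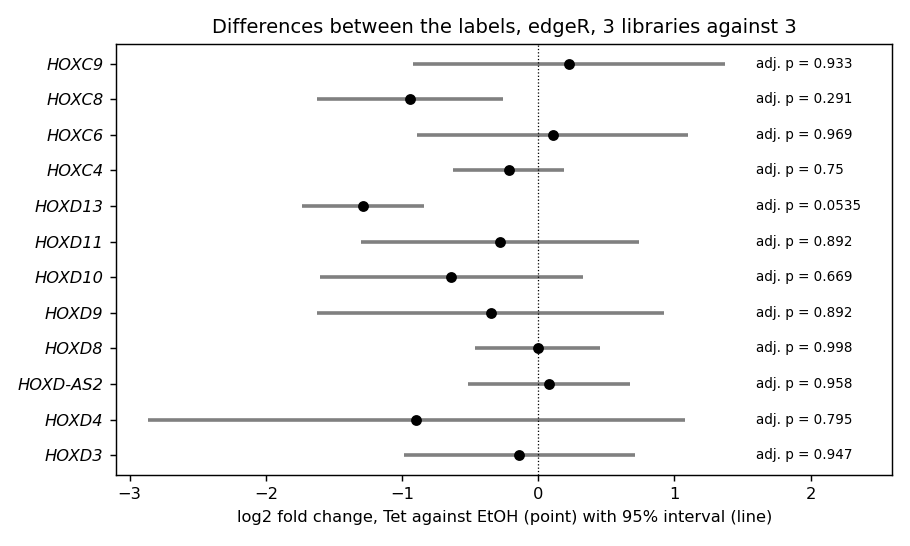
Fitted log2 fold change of Tet against EtOH (points) with its 95% interval (lines) for the 12 members tested, with the edgeR adjusted p over all genes at the right. The intervals of *HOXD13* (-1.74 to -0.84) and *HOXC8* (-1.62 to -0.26) lie wholly below 0, and those of the other 10 include 0.

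The members also differed in how steady they were within a group. The coefficient of variation was 4.41% and 4.42% for *HOXC4* in EtOH and Tet and 3.24% and 20.3% for *HOXD13*, against 72.1% and 95.4% for *HOXD4* and 64.0% and 41.5% for *HOXD9*. EtOH 2 was the lowest EtOH library for 8 of the 12 members, and for 45.8% of all genes tested. Tet 3 was the highest Tet library for 7 of 12, and for 40.0% of all genes.

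The 13 members with a count that were not tested had at most 6 counts in a library and at most 22.5 counts in all. Among them *HOXD1* had 2.5, 5 and 6 counts in EtOH and 2.5, 1.5 and 5 in Tet, and *HOXC10* had 4, 4 and 5 counts in EtOH and 1, 1 and 6 in Tet. At such counts a difference between the labels was not detectable.

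Genes lying inside or beside the clusters but outside the rule gave the setting of these values. Of 20 such genes 8 were tested, 0 passed (edgeR; 1 had an unadjusted p under 0.05) and 8 had 0 counts in every library. *HAGLR*, a long non-coding RNA whose span runs from *HOXD3* to *HOXD1*, stood at 41.2, 32.5 and 37.0 CPM in EtOH 1, 2 and 3 and at 35.0, 29.1 and 32.8 CPM in Tet 1, 2 and 3 (log2 fold change -0.19, adjusted p = 0.757), with overlapping groups. *HAGLROS*, transcribed on its opposite strand, stood at 0.865, 0.505 and 1.32 CPM in EtOH and at 0.354, 0.338 and 0.403 CPM in Tet. Its groups did not overlap (log2 fold change -1.29, SE 0.48, 95% interval -2.38 to -0.20, adjusted p = 0.377). *EVX2*, the homeobox gene next to *HOXD13* at the posterior border of the cluster, had 6, 3 and 2 counts in EtOH and 0, 0 and 0 counts in Tet, too few to be tested. *MTX2*, a mitochondrial import gene beyond the anterior end and the highest of these genes at 106 TPM, had a log2 fold change of -0.06 (SE 0.19, adjusted p = 0.954).

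Genes for proteins that work with HOX proteins or on the *HOX* genes included some of the more abundant transcripts. TALE-class homeodomain proteins bind DNA together with HOX proteins, and 7 of the 9 listed were tested. The fitted log2 fold change was above 0 for 6 and below 0 for 1, with a median of 0.25, and 0 passed (edgeR, also 0 with an unadjusted p under 0.05). *MEIS1*, the highest of them at 107 TPM, stood at 434, 312 and 428 CPM in EtOH 1, 2 and 3 and at 464, 503 and 453 CPM in Tet 1, 2 and 3. All Tet libraries lay above all EtOH libraries, but the difference was small (log2 fold change 0.27, SE 0.17, 95% interval -0.11 to 0.66, adjusted p = 0.630). Per length, *MEIS1* was several times as high as any *HOX* member.

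Of the 17 Polycomb and Trithorax regulators 16 were tested, 8 with a log2 fold change above 0 and 8 below, with a median of 0.06, and 0 passed (edgeR, also 0 at an unadjusted p under 0.05). *SUZ12*, a core subunit of Polycomb repressive complex 2, was the highest at 112 TPM and its catalytic partner *EZH2* stood at 103 TPM. *SUZ12* stood at 207, 376 and 234 CPM in EtOH 1, 2 and 3 and at 236, 301 and 244 CPM in Tet 1, 2 and 3, with EtOH 2 the highest library (log2 fold change -0.06, SE 0.24, adjusted p = 0.965).

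Retinoic acid is a known inducer of *HOX* genes. Of the 9 genes listed for its receptors and enzymes 4 were tested and 0 passed (edgeR, also 0 at an unadjusted p under 0.05), with a median log2 fold change of 0.52. The log2 fold change was above 0 for 3 (*RARA* 0.80, *RXRA* 0.77 and *RXRB* 0.28) and below 0 for *RARB*. For *RARA* and *RXRB* only Tet 3 lay above the EtOH range. *RARA* stood at 1.88, 1.41 and 5.44 CPM in Tet 1, 2 and 3, against 1.49 to 1.95 CPM in EtOH. *RXRB* stood at 0.354, 0.254 and 0.956 CPM, against 0.331 to 0.649 CPM. *RXRA* stood at 1.10, 2.79 and 2.47 CPM, against 1.16 to 1.33 CPM. Mean levels were low for *RXRA* (0.375 TPM) and *RXRB* (0.331 TPM). The receptor *RARB* was the highest at 17.8 TPM and stood at 26.1, 24.7 and 26.5 CPM in EtOH 1, 2 and 3 and at 21.6, 19.9 and 26.5 CPM in Tet 1, 2 and 3. Tet 3 lay within the EtOH range and the other two below it (log2 fold change -0.19, SE 0.17, adjusted p = 0.781). Of the CDX and ParaHox genes, relatives of the *HOX* genes that include upstream activators of posterior ones, 5 of 6 had 0 counts in every library. *GSX2* had 12 counts in all.

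**Figure D5:**
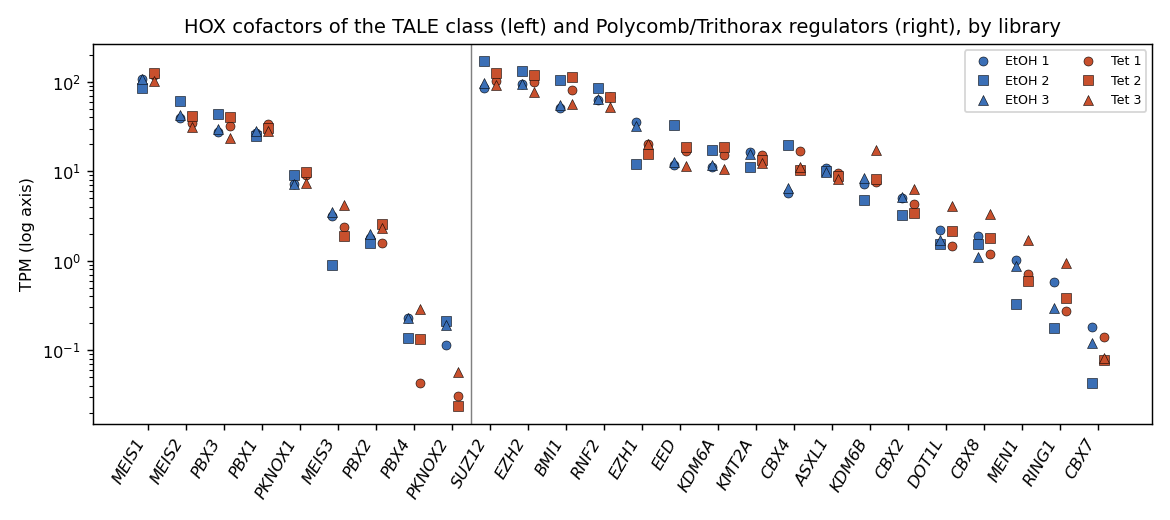
Level in TPM, on a log axis, of the 9 TALE cofactors (left of the line) and the 17 Polycomb and Trithorax regulators (right), by library (blue EtOH, orange Tet, marker shape for replicate), ordered by mean level within each list. *MEIS1* (107 TPM), *SUZ12* (112 TPM) and *EZH2* (103 TPM) stand at the top.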

How the data were processed

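Each library was deposited as a table of unscaled estimated counts for all genes. Per the file headers, the authors used featureCounts 1.6.4 over exons on unique alignments, dividing read pairs between overlapping genes and ignoring strand. Reads were trimmed and aligned with STAR (2.7.1a on GRCh38, with featureCounts 1.5.1, per the submitters' processing notes). The study's methods describe other counting options. The members, lists and tests were chosen with earlier results of these data known. Symbols were found for 60437 of 60651 identifiers. Estimated counts were rounded, since whole numbers were assumed when the test was planned, filtered with filterByExpr (22443 genes kept), scaled by TMM and compared with edgeR 4.0.16 (quasi-likelihood F test, R 4.3.3) over all 6 libraries, with Benjamini-Hochberg adjustment and no replicate block. SE is the log2 fold change divided by the square root of F. TPM used the exon length in each table. Named were members past the threshold, the 10 highest by TPM, those with an unadjusted p under 0.05, *HOTAIR*, *HOTAIRM1* and *HOTTIP*, and, per list, the highest gene and those past either threshold. All others named, *HOXD4*, *HOXA13*, *HOXB3*, *HOXC5*, *EZH2*, *EVX2*, *HAGLR* and the marker genes among them, were added after their values were seen. A member counted in the totals is not reported here by itself. Scripts were tested on simulated data. Alternatives were RLE scaling, no filter, 10 counts in 3 libraries, DESeq2 1.42.0, limma-voom 3.58.1, unrounded counts, no mitochondrial genes, a replicate block and leaving out each library. The 92 spike-in sequences had a largest count of 0.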

Additional observations from a re-analysis of the deposited data

How the results depend on the processing

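Whether *HOXD13* passed depended on the setting, and its direction did not. Over all genes, 53 passed in the reported fit, 302 with no filter on low counts, 675 with a replicate block, 499 with DESeq2, and between 0 and 692 when 1 library was left out, 692 being without EtOH 2 and 0 without Tet 1 or without Tet 3. The count of *HOX* members past the threshold, 0 as reported, was 1 (*HOXD13*) with no filter, with the block, with DESeq2, with limma-voom and without EtOH 2, and the leave-one-out range was 0 to 1. *HOXD13* had a log2 fold change of -1.29 with no filter (adjusted p = 0.00417), -1.30 with the replicate block (0.00400), -1.30 with DESeq2 (3.9e-05) and -1.32 with limma-voom (0.0480), and without 1 library it ranged from -1.47 to -1.17, with an adjusted p up to 0.265 over all alternatives. The replicate numbers were not taken as pairs, since the labels do not say what they mark and same-numbered libraries deviated together with correlations of 0.06, 0.51 and 0.22. No other member passed under any alternative. Among the partner and regulator genes, 0 passed in the reported fit and under each alternative except without EtOH 2, where 2 did, so the leave-one-out range was 0 to 2; this count was added after the data were seen.

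Of 238 comparisons over 17 other named genes, 218 kept direction and side of the threshold, and 20 reversed, each when 1 library was left out and none past the threshold. With 1 library left out, the log2 fold change ranged from -0.17 to 0.57 for *HOXC6*, from -0.29 to 0.68 for *HOXC9*, from -0.52 to 0.12 for *HOXD11*, from -0.0737 to 0.323 for *HOXD-AS2*, from -0.72 to 0.22 for *HOXD9*. It ranged from -0.11 to 0.0898 for *HOXD8*, from -0.32 to 0.11 for *HOXD3*, from -0.22 to 0.21 for *MYCN*, from -0.25 to 0.25 for *SUZ12*, from -0.20 to 0.0191 for *MTX2*. The range was -1.97 to -0.47 for *HOXD4* and -0.85 to -0.33 for *HOXD10*, with no change of sign. Reversed values inside these ranges were -0.15 and -0.06 for *HOXC6*, -0.0062 for *HOXC9*, -0.03 for *HOXD-AS2*, 0.04, 0.0068, 0.0016 for *HOXD8*, 0.0078 for *HOXD3*, 0.07 for *MYCN*, 0.02 for *MTX2*. The cause was not tested.

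The count of members at 1 TPM or more was 11, and 10 to 12 under the alternatives, which included a bound of 0.5 TPM. With 3 libraries a label and at most a few reads for most members, absence of a call is not absence of a difference.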

Other observations

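Inside the span of *HOXC4*, at chr12:54019910-54022589 on the plus strand, lies a long non-coding gene without a symbol, ENSG00000260597, which the rule left out and which was picked after its values were seen. It had 24, 30 and 28 counts in EtOH 1, 2 and 3 and 54, 41 and 50 counts in Tet 1, 2 and 3, or 0.670, 1.08 and 0.926 CPM against 1.91, 1.16 and 1.26 CPM. All Tet libraries lay above all EtOH libraries, while those of *HOXC4* lay below. The log2 fold change was 0.69 (SE 0.38, 95% interval -0.18 to 1.56) with an edgeR adjusted p of 0.578, so the difference did not pass.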
